A study of Homo sapiens with 23 samples.

Results

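Day 5 of a cardiac differentiation course was compared with the days on either side of it, day 3 and day 7, to describe genes that were high or low at day 5 alone among the 3. The cells were H1-hESC, an established human embryonic stem cell line, of wild-type genotype in all groups, taken through directed differentiation to cardiomyocytes. Bulk total RNA was depleted of ribosomal RNA and sequenced. The labels call the cells cardiac mesoderm at day 3 and cardiac progenitors at both day 5 and day 7, and no treatment other than the differentiation separates the days. The series holds 23 libraries over 8 days, from day 0 (stem cells) to day 28 (cardiomyocytes), and 9 of them were used here, 3 at each of days 3, 5 and 7. All libraries come from 1 cell line. Nothing in the labels tells whether replicates came from separate cultures, so each p-value reflects library-to-library spread, which may be technical.

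A gene was called transient where 3 conditions held together. The difference between day 5 and the mean of days 3 and 7 on the log2 scale (the combined contrast) passed edgeR's quasi-likelihood test at an adjusted p under 0.05. The differences from day 3 and from day 7 each passed the same threshold with the same sign. All 3 day 5 libraries lay above, or all below, all 6 flanking libraries. By this rule 94 genes were higher and 58 were lower at day 5, of 17265 genes tested.

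As background, cardiac progenitors arise from mesoderm that leaves the primitive streak under NODAL, BMP, FGF and Wnt signals. Wnt signalling promotes mesoderm formation and then has to fall for the cardiac fate to be taken, and secreted antagonists such as DKK1 act in that step. Progenitors of the posterior heart field carry HOXB genes and TBX18, and the epicardium, the outer layer of the heart, forms from a neighbouring cluster marked by TBX18, WT1 and TCF21. Sarcomere genes are switched on as progenitors become beating cardiomyocytes.

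A set of 4 stretches of sequence before transcription start sites is shown here because their genes lead the groups described below: HOXB1 for the patterning genes, ASNS and PHGDH for the amino acid genes and DKK1 for the Wnt antagonists. Each is the 250 bases upstream of a start site in RefSeq (GRCh38.p14), written 5′ to 3′ on the strand of the gene. The gene spans given below are from GENCODE and can begin elsewhere. The PHGDH window lies inside the span of its gene, and the ASNS window overlaps the span of ASNS, its marked motif included.
HOXB1 (chr17:48531012-48531261, minus strand): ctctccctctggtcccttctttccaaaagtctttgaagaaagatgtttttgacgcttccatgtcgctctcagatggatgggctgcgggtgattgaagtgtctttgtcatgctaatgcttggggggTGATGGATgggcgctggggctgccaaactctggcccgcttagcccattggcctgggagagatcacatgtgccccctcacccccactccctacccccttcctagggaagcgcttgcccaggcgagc
ASNS (chr7:97872409-97872658, minus strand): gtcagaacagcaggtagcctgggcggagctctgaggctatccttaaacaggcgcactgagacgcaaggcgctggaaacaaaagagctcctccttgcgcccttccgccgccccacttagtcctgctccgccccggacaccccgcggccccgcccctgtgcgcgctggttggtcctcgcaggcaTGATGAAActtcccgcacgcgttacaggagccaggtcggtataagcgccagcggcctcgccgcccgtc
PHGDH (chr1:119711684-119711933, plus strand): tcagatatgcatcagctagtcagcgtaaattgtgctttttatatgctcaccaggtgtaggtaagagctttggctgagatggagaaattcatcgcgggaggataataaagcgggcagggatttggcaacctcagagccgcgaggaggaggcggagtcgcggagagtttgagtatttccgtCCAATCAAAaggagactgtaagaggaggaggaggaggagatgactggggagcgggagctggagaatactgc
DKK1 (chr10:52314031-52314280, plus strand): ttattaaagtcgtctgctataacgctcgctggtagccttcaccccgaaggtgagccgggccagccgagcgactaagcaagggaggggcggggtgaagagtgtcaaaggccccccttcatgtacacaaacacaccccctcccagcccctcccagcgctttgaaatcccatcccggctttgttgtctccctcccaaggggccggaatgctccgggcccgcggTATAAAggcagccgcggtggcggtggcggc
The capitals in HOXB1 mark TGATNGAT, the form of site bound by HOX proteins with their PBX partners, at position -125 from the start. In ASNS they mark TGATGNAA, a form of the amino acid response element read by ATF4, at -68. In PHGDH they mark CCAAT at -71 and, overlapping it, TTTGAT on the opposite strand at -68. In DKK1 they mark TATAAA, the TATA box, at -30. The motifs were chosen with the sequences in view and searched on both strands. ASNS had 2 start sites listed, and the choice between them preferred the window holding the marked motif. Of 35116 upstream windows of this length, 1.26% held TGATNGAT, 3.14% TGATGNAA, 32.0% CCAAT, 8.45% TTTGAT and 10.7% TATAAA. Among the transient higher genes, 63 matched by symbol with 93 windows, of which 4.3% held TGATNGAT, 4.3% TGATGNAA, 30.1% CCAAT, 7.53% TTTGAT and 8.6% TATAAA. Among the lower genes 44 matched with 68 windows, of which 1.47% held TGATNGAT, 1.47% TGATGNAA, 25% CCAAT, 13.2% TTTGAT and 14.7% TATAAA. The other motifs searched were the GATA site GATAAG, the E-box CACGTG, the E-box CATATG, the E-box CAGCTG, the TEAD site GGAATG, the hypoxia core ACGTG (which lies within the first E-box) and the T-box half-site AGGTGTGA. All windows held them at 5.65%, 6.34%, 2.63%, 14.0%, 11.9%, 18.5% and 0.786%, in that order. Those of the higher genes held them at 4.3%, 1.08%, 4.3%, 14.0%, 11.8%, 16.1% and 0%, and those of the lower genes at 5.88%, 4.41%, 1.47%, 17.6%, 5.88%, 11.8% and 0%. These matches describe letters in the windows and were not tested.

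Total counts in the 9 libraries ran from 4330334 (day 5 replicate 3) to 20975832 (day 3 replicate 1). The day 5 libraries differed more among themselves than those of the flanking days: over 17538 genes, the correlation of log values between replicates was 0.869 to 0.956 at day 5, 0.962 to 0.987 at day 3 and 0.987 to 0.991 at day 7. In a principal component analysis the second component (14.8% of the variance) held day 5 apart, at -43.5 to -34.2 against 9.07 to 28.2 for the other libraries. A later component (6.4%) held day 5 replicate 2 (35.9) and replicate 3 (-34.0) apart from each other. Replication-dependent histone genes took 1.29%, 1.02% and 2.85% of counts in the 3 day 5 libraries, and mitochondrially encoded messenger RNAs 1.64%, 1.21% and 2.12%. Deviations from the day means, correlated across genes, also linked libraries of different numbers: day 3 replicate 1 with day 5 replicate 2 at 0.819 and day 3 replicate 2 with day 5 replicate 3 at 0.606. Without day 3 replicate 1 and day 5 replicate 2 together, the rule described above found 403 higher and 449 lower genes. The part of these differences in the results was not tested. The labelled stage was checked against marker lists: the summed level of 24 sarcomere genes went from 321 to 333 CPM (day 3) through 7799 to 11918 (day 5) to 33325 to 38675 (day 7), where CPM is a count scaled to its library's total. The sum of 13 primitive streak genes was 478 to 1015, 59.7 to 98.9 and 72.6 to 102 CPM on the same days.

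The combined contrast called 535 genes higher (3.1% of those tested) and 206 lower (1.19%). Most of these were not transient. Of the 535, 112 (20.9%) had a day 5 level between those of the flanking days. Another 326 were above both flanking days but did not pass the test against both. Of the 206, 35 (17%) lay between and 113 were below both without passing against both. Against day 3 alone, 1270 genes were higher (7.36%) and 687 lower (3.98%). Against day 7 alone, 323 were higher (1.87%) and 602 lower (3.49%). Separation of the libraries without any test was found for 356 genes on the higher side (2.06%) and 267 on the lower side (1.55%). The transient rule left 94 higher (0.544%) and 58 lower (0.336%). The 2 differences of a transient gene share the day 5 libraries, so they are not independent of each other. With library totals as the only scaling, the counts were 75 higher and 71 lower, against 94 and 58 with TMM factors.

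**Figure D1:**
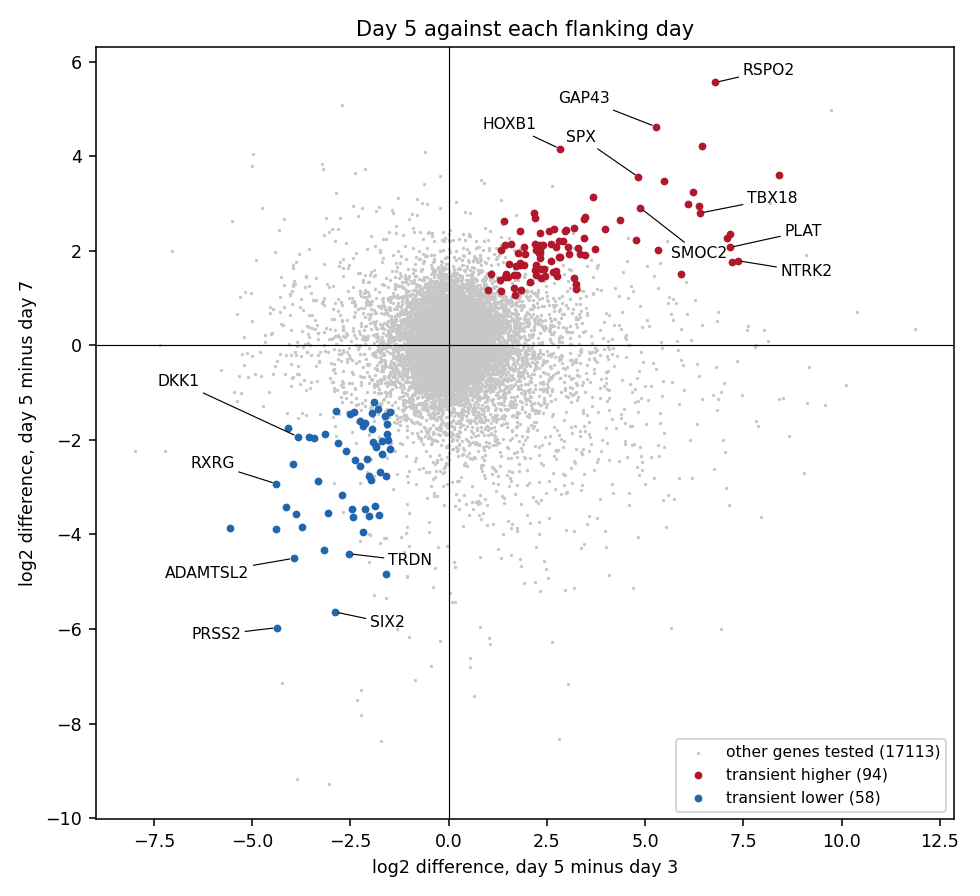
Each point is a gene: the x axis is the fitted log2 difference of day 5 from day 3 and the y axis that from day 7. The 94 transient higher genes (red) lie at the upper right and the 58 transient lower genes (blue) at the lower left, with the other genes tested in grey.

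The counts moved with single libraries. Without day 5 replicate 2 the rule found 361 higher and 276 lower genes, and without day 5 replicate 3 it found 155 higher and 87 lower. Without day 5 replicate 1 it found 41 and 29. Leaving out day 7 replicate 1, 2 or 3 gave 46, 26 and 25 higher genes and 39, 34 and 36 lower genes. In the combined contrast, leaving out day 5 replicate 2 gave 1534 higher and 1130 lower genes and leaving out day 5 replicate 1 gave 304 and 90. It called 404, 336 and 324 higher and 137, 125 and 134 lower genes without day 7 replicate 1, 2 or 3. The call of 20 of the 94 and 21 of the 58 held without each of the 9 libraries in turn. For each other transient gene described below, the libraries without which its call was lost are named, and so is any other setting that ended a call. Those settings were other scalings (RLE factors, upper-quartile factors or library totals), DESeq2, limma-voom with a spread for each day, a filter of 1 count or of 30 counts, a replicate block and a fit of all 23 libraries. Except where a list is named, genes are grouped by known role after their values were seen. Levels of single genes are CPM scaled by TMM. A difference is on the log2 scale, day 5 minus the other day, with its standard error and the Benjamini-Hochberg adjusted p of edgeR's quasi-likelihood test. CPM is not scaled by gene length, so levels are compared within a gene only. In bulk RNA, fewer cells of a type and less RNA per cell cannot be told apart.

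HOXB1 and HOXB2, patterning factors of the HOXB cluster, were higher at day 5 than on both flanking days. HOXB1 (chr17:48528526-48531011, minus strand), the most anterior HOXB gene, which marks posterior heart field progenitors and the hindbrain, had 10.6, 14.7 and 5.85 CPM at day 3, 73.7, 59.4 and 89.8 CPM at day 5 and 5.35, 3.01 and 4.21 CPM at day 7. All 3 day 5 libraries were above every flanking library by a wide gap, and the lowest was 59.4 CPM against a highest flanking level of 14.7. The log2 difference was 2.83 ± 0.39 against day 3 (adjusted p = 0.00021) and 4.16 ± 0.43 against day 7 (adjusted p = 5.57e-05). HOXB2 (chr17:48540894-48545109, minus strand), its neighbour in the cluster, had 17.8, 19.2 and 9.79 CPM at day 3, 52.3, 51.2 and 74.4 CPM at day 5 and 18.6, 16.8 and 19.4 CPM at day 7. The libraries of its flanking days overlapped, and all 3 day 5 libraries stood above them. The HOXB2 difference was 1.92 ± 0.34 against day 3 (adjusted p = 0.00145) and 1.7 ± 0.34 against day 7 (adjusted p = 0.0086). The HOXB2 call was lost without day 7 replicates 1, 2 or 3 (adjusted p from 0.054 to 0.0749). HOXB-AS1, a long non-coding RNA on the opposite strand that overlaps HOXB2, also met the rule, at 3.66 ± 1.3 (day 3), 10.3 ± 3.21 (day 5) and 3.66 ± 0.536 CPM (day 7) (mean ± SD, n = 3), but its call was lost without day 3 replicates 2 or 3 or day 5 replicates 1 or 3 or day 7 replicates 1, 2 or 3 (adjusted p from 0.0548 to 0.209) and under library totals and limma-voom (adjusted p from 0.0516 to 0.206). The strand setting of the counting is not stated, so reads of these overlapping genes may not be separable. Other genes described below also overlap a gene on the opposite strand, and the same limit holds for them. They include TBX18 (TBX18-AS1), TCF21 (TARID), SPX (GYS2), CCDC3 (OPTN), LAMP5 (LAMP5-AS1) and ITLN2 (ENSG00000198358).

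Of 20 HOX genes listed, 9 passed the count filter. In the combined contrast 6 were higher (3.1% of all genes tested), and 2 met the transient rule on the higher side (0.544%). The median combined log2 difference of the 9 was 1.81, against 0.09 over all genes tested. HOXB4 averaged 5.21 ± 2.95 (day 3), 42.5 ± 3.6 (day 5) and 19.2 ± 4.9 CPM (day 7) (mean ± SD, n = 3), with log2 differences of 3.0 against day 3 (adjusted p = 0.000357) and 1.15 against day 7 (adjusted p = 0.149), and so did not pass against day 7. HOXB3, at 21 ± 5.5 (day 3), 40.4 ± 7.96 (day 5) and 16.8 ± 2.95 CPM (day 7), gave 0.94 against day 3 (adjusted p = 0.0809) and 1.28 against day 7 (adjusted p = 0.0354). Within the cluster, HOXB1 was at 2.13 CPM at day 10 and 0.304 CPM at day 28, while HOXB2 was at 16.1 CPM at day 10 and 23.2 CPM at day 28. A list of second heart field and posterior patterning genes, which holds HOXB1, went both ways. Of 14 tested, 3 were higher (3.1% of all genes) and 1 was lower (1.19%) in the combined contrast, with a median of 0.51. HOXB1 was transient higher (0.544% of all genes) and SIX2, described below, transient lower (0.336%).

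Of 9 epicardial markers tested, TBX18 and TCF21 met the rule on the higher side. TBX18, a T-box factor of the epicardium and sinus horn, had 0.382, 0.0813 and 0 CPM at day 3, 4.29, 40.3 and 7.17 CPM at day 5 and 3.21, 2.75 and 1.77 CPM at day 7. Day 5 replicate 2 held most of this signal. The log2 difference was 6.4 ± 0.93 against day 3 (adjusted p = 0.000308) and 2.8 ± 0.74 against day 7 (adjusted p = 0.04). The TBX18 call was lost without day 5 replicate 2 or day 7 replicates 1, 2 or 3 (adjusted p from 0.108 to 0.182) and under DESeq2 and the 30-count filter (adjusted p from 0.0528 to 0.0955). It was also lost without day 3 replicate 1 and day 5 replicate 2 together (adjusted p = 0.0694). TCF21, a bHLH factor of epicardial cells that give rise to fibroblasts, had 0.62, 0.488 and 0 CPM at day 3, 4.17, 4.49 and 5.58 CPM at day 5 and 1.28, 0.393 and 0.665 CPM at day 7. Its 3 day 5 libraries were close to each other, and the log2 difference was 3.45 ± 0.57 against day 3 (adjusted p = 0.000874) and 2.67 ± 0.59 against day 7 (adjusted p = 0.0163). The TCF21 call was lost without day 5 replicate 1 or day 7 replicates 2 or 3 (adjusted p from 0.0582 to 0.115).

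WT1, a zinc finger factor of the epicardium, had 0.0477, 0.0813 and 0 CPM at day 3, 9.47, 35.9 and 4.78 CPM at day 5 and 5.57, 1.18 and 0.333 CPM at day 7. It passed all 3 tests (adjusted p = 0.000295 against day 3 and 0.0447 against day 7), but day 5 replicate 3 lay below day 7 replicate 1, so it did not meet the rule. WT1 had 2 counts in all at day 3, and the ratio of day 5 to day 3 was 488 with a 95% exact counting interval of 134 to 4040. BNC1, another epicardial factor, averaged 3.82 ± 3.14 (day 3), 35.5 ± 27.8 (day 5) and 8.61 ± 2.43 CPM (day 7) (mean ± SD, n = 3) and did not pass against day 7 (adjusted p = 0.0836). Of 12 epicardial markers listed, 9 were tested, with a median combined log2 difference of 2.26, against 0.09 over all genes. Among these markers, 5 were higher in the combined contrast (3.1% of all genes tested) and 2 were transient higher (0.544%). Their summed level did not set day 5 apart: it was 1691, 991 and 2304 CPM in the 3 day 5 libraries, against 691 to 1275 at day 3 and 996 to 1191 at day 7, and day 5 replicate 2 was within the range of day 3 and below that of day 7. KRT19, the marker with the highest counts, averaged 985 ± 307 (day 3), 1626 ± 864 (day 5) and 941 ± 108 CPM (day 7) and gave 0.72 against day 3 (adjusted p = 0.316) and 0.79 against day 7 (adjusted p = 0.339). The list sums, without TMM scaling, averaged 1029 (day 3), 1662 (day 5) and 1096 CPM (day 7). KRT19 thus made up most of the sum, which says little of the other markers. WT1 and TBX18 were highest in day 5 replicate 2, the library that differed most from replicate 3, and the TBX18 call was lost without it. What set that library apart was not tested.

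The homeobox factors HLX and ALX4 also met the rule. HLX, a homeobox factor of visceral mesenchyme, had 1.38, 3.82 and 4.25 CPM at day 3, 11.6, 15.9 and 18.9 CPM at day 5 and 5.14, 3.8 and 3.21 CPM at day 7. The HLX call was lost without day 7 replicates 2 or 3 (adjusted p from 0.0923 to 0.106). ALX4, a homeobox factor of mesenchyme and limb, had 0.573, 0.325 and 0.319 CPM at day 3, 3.03, 5.99 and 4.25 CPM at day 5 and 0.857, 1.44 and 1.11 CPM at day 7. The ALX4 call was lost without day 7 replicates 1, 2 or 3 (adjusted p from 0.0559 to 0.104), and ALX4 was not tested under the 30-count filter. Both were low before and after: HLX was at 0.36 CPM at day 1 and 1.9 CPM at day 14, and ALX4 at 0.0343 CPM at day 1 and 0.684 CPM at day 14.

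TNC, SMOC2 and SBSPON, which encode proteins of the extracellular matrix, were higher at day 5 than on both flanking days. Matrix genes as a list went both ways: of 25 tested outside the collagens, 3 were higher and 5 lower in the combined contrast, and 1 was transient in each direction, with a median of 0.39. Over all genes tested, 3.1% were higher and 1.19% lower in that contrast, with a median of 0.09. TNC (chr9:115019575-115118207, minus strand) encodes tenascin-C, a matrix glycoprotein of developing and injured tissue. It had 285, 252 and 176 CPM at day 3, 1458, 1048 and 1040 CPM at day 5 and 407, 274 and 311 CPM at day 7. The TNC difference was 2.31 ± 0.32 against day 3 (adjusted p = 0.000242) and 1.84 ± 0.32 against day 7 (adjusted p = 0.00336). The lowest day 5 library, replicate 3, was well above the highest flanking one, day 7 replicate 1. SMOC2 (chr6:168441151-168673445, plus strand), a secreted calcium-binding matricellular protein, had 0.334, 0.65 and 2.66 CPM at day 3, 33, 36.1 and 28.4 CPM at day 5 and 5.78, 2.88 and 4.43 CPM at day 7. Its day 5 libraries lay within 28.4 to 36.1 CPM, and the log2 difference was 4.86 ± 0.60 against day 3 (adjusted p = 8.09e-05) and 2.92 ± 0.54 against day 7 (adjusted p = 0.00479). SBSPON, a small secreted protein with somatomedin B and thrombospondin domains, had 0.955, 0.407 and 0.532 CPM at day 3, 18.9, 22.2 and 13.3 CPM at day 5 and 3.85, 3.8 and 3.99 CPM at day 7. The SBSPON difference was 4.76 ± 0.41 against day 3 (adjusted p = 5.16e-06) and 2.23 ± 0.36 against day 7 (adjusted p = 0.00201). The calls of TNC, SMOC2 and SBSPON held without each library.

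DDR2, a receptor tyrosine kinase that binds fibrillar collagen, had 1.19, 0.407 and 0.745 CPM at day 3, 14.6, 85.6 and 9.3 CPM at day 5 and 5.57, 2.88 and 1.88 CPM at day 7, again with the highest level in day 5 replicate 2. Its log2 difference was 5.48 ± 0.82 against day 3 (adjusted p = 0.000386) and 3.48 ± 0.74 against day 7 (adjusted p = 0.0128). The DDR2 call was lost without day 7 replicates 2 or 3 (adjusted p from 0.0724 to 0.0773). COL21A1, a fibril-associated collagen chain, had 3.91, 2.11 and 0.745 CPM at day 3, 12.1, 33.6 and 8.5 CPM at day 5 and 3.85, 3.27 and 3.21 CPM at day 7. The COL21A1 call was lost without day 5 replicate 1 or day 7 replicates 1, 2 or 3 (adjusted p from 0.0507 to 0.113). PCOLCE, an enhancer of procollagen processing, had 22.5, 41.1 and 24 CPM at day 3, 157, 119.8 and 348 CPM at day 5 and 61.2, 49.9 and 60.2 CPM at day 7. The PCOLCE call was lost without day 7 replicates 1, 2 or 3 (adjusted p from 0.0733 to 0.114). In contrast to DDR2, PCOLCE was highest in day 5 replicate 3. Of 22 collagen genes tested, 6 were higher and 1 was lower in the combined contrast, and COL21A1 (higher) and COL13A1 (lower) were transient, with a median of 0.82. That contrast called 3.1% of all genes higher and 1.19% lower, with a median of 0.09. COL3A1, the gene of type III collagen, averaged 0.79 ± 0.325 (day 3), 1129 ± 716 (day 5) and 688 ± 314 CPM (day 7) (mean ± SD, n = 3) with log2 differences of 10.4 against day 3 (adjusted p = 9.17e-07) and 0.72 against day 7 (adjusted p = 0.531), so it was above day 3 only.

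Another group encodes secreted signals and their receptors. RSPO2, a secreted protein that strengthens Wnt signalling through LGR receptors, had 0.0477, 0 and 0.213 CPM at day 3, 8.58, 13.2 and 5.58 CPM at day 5 and 0, 0.262 and 0.222 CPM at day 7. It was near 0 on both flanking days, with 3 counts in all at day 3, and was seen in all 3 day 5 libraries. The ratio of day 5 to day 3 was 150 with a 95% exact counting interval of 50.9 to 734, and the call held without each library (adjusted p = 1.24e-05 against day 3 and 0.000172 against day 7). NODAL (chr10:70431936-70447951, minus strand), the TGF-beta family ligand that patterns the primitive streak, had 3.82, 4.72 and 3.3 CPM at day 3, 16.5, 16.2 and 22.8 CPM at day 5 and 4.07, 5.24 and 4.32 CPM at day 7. The NODAL difference was 2.22 ± 0.32 against day 3 (adjusted p = 0.000313) and 2.01 ± 0.33 against day 7 (adjusted p = 0.00211). NODAL stood at 459 CPM at day 1, above its day 5 level. NODAL was the only transient gene among 13 primitive streak genes tested, of which 11 were lower at day 5 than at day 3 (3.98% of all genes).

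ACKR3, a scavenging receptor for the chemokine CXCL12, had 7.21, 8.05 and 9.15 CPM at day 3, 25.9, 34 and 25.2 CPM at day 5 and 6.64, 4.84 and 4.54 CPM at day 7. The ACKR3 difference was 1.81 ± 0.31 against day 3 (adjusted p = 0.0011) and 2.42 ± 0.33 against day 7 (adjusted p = 0.000436). GFRA2, a receptor subunit for the growth factor neurturin, had 2.58, 4.47 and 4.47 CPM at day 3, 17.9, 27.2 and 31.6 CPM at day 5 and 7.49, 6.94 and 3.77 CPM at day 7. The GFRA2 difference was 2.74 ± 0.39 against day 3 (adjusted p = 0.000269) and 2.08 ± 0.39 against day 7 (adjusted p = 0.00481). PTGIS (chr20:49503874-49568137, minus strand), prostacyclin synthase, had 32.3, 46.5 and 33.4 CPM at day 3, 153, 128 and 231 CPM at day 5 and 36.4, 22 and 20.6 CPM at day 7. Day 5 stood above both flanking days with a wide gap, and the log2 difference was 2.19 ± 0.36 against day 3 (adjusted p = 0.000877) and 2.7 ± 0.37 against day 7 (adjusted p = 0.000557). PLAT, tissue plasminogen activator, had 1.34, 1.22 and 1.06 CPM at day 3, 162, 209.7 and 154 CPM at day 5 and 53.5, 39 and 32.9 CPM at day 7. It was barely detected at day 3 and had fallen by day 7 to a level still far above that of day 3. The PLAT difference was 7.15 ± 0.41 against day 3 (adjusted p = 1.89e-07) and 2.07 ± 0.32 against day 7 (adjusted p = 0.00153). All 4 calls held without each library. CCDC3, a secreted protein of vessels and fat, had 32.7, 42.8 and 17.6 CPM at day 3, 164, 211 and 284 CPM at day 5 and 76.4, 33.1 and 32.7 CPM at day 7. The CCDC3 call was lost without day 7 replicates 2 or 3 (adjusted p from 0.0667 to 0.0672).

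Genes best known from neurons or peptide hormones also met the rule. GAP43 (chr3:115623510-115721490, plus strand), a growth cone protein, had 1.67, 1.22 and 1.06 CPM at day 3, 44.9, 72.1 and 39.6 CPM at day 5 and 3.64, 1.57 and 1.44 CPM at day 7. The GAP43 difference was 5.27 ± 0.45 against day 3 (adjusted p = 4.75e-06) and 4.63 ± 0.45 against day 7 (adjusted p = 4.14e-05). Its mean was 22.1 CPM at day 0 and 71.1 CPM at day 1. SPX, which encodes the peptide hormone spexin, had 0.573, 0.65 and 0.319 CPM at day 3, 12.4, 22.8 and 10.4 CPM at day 5 and 1.71, 1.05 and 1.22 CPM at day 7. The SPX difference was 4.83 ± 0.45 against day 3 (adjusted p = 8.26e-06) and 3.56 ± 0.43 against day 7 (adjusted p = 0.000211). LRP1B, a very large lipoprotein receptor-like gene, had 5.01, 4.23 and 0.638 CPM at day 3, 56.8, 97.1 and 53.6 CPM at day 5 and 10.9, 12 and 9.98 CPM at day 7. The LRP1B difference was 4.35 ± 0.55 against day 3 (adjusted p = 0.000106) and 2.66 ± 0.51 against day 7 (adjusted p = 0.00651). The calls of GAP43, SPX and LRP1B held without each library.

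CBLN2, a secreted synapse organiser, had 2.15, 2.36 and 0.213 CPM at day 3, 288, 156 and 223 CPM at day 5 and 49.9, 35.9 and 52.1 CPM at day 7. It rose from day 3 to day 5 and fell by day 7. The CBLN2 difference was 7.07 ± 0.63 against day 3 (adjusted p = 6.2e-06) and 2.28 ± 0.49 against day 7 (adjusted p = 0.0144). NTRK2, the receptor for the growth factor BDNF, had 0.429, 0.488 and 0.106 CPM at day 3, 64.2, 86.4 and 33.2 CPM at day 5 and 24.2, 14.7 and 14.7 CPM at day 7. The call of CBLN2 was lost without day 5 replicate 1 or day 7 replicates 1, 2 or 3 (adjusted p from 0.0663 to 0.105), and that of NTRK2 without day 5 replicate 1 or day 7 replicates 2 or 3 (adjusted p from 0.0828 to 0.138). Of 14 neural and neural crest markers listed, 5 were tested. The combined contrast, which called 3.1% of all genes higher and 1.19% lower, called none of these markers. Their summed level was 56.7 to 114 CPM (day 3), 7.61 to 9.24 (day 5) and 10.7 to 13.2 (day 7).

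**Figure D2:**
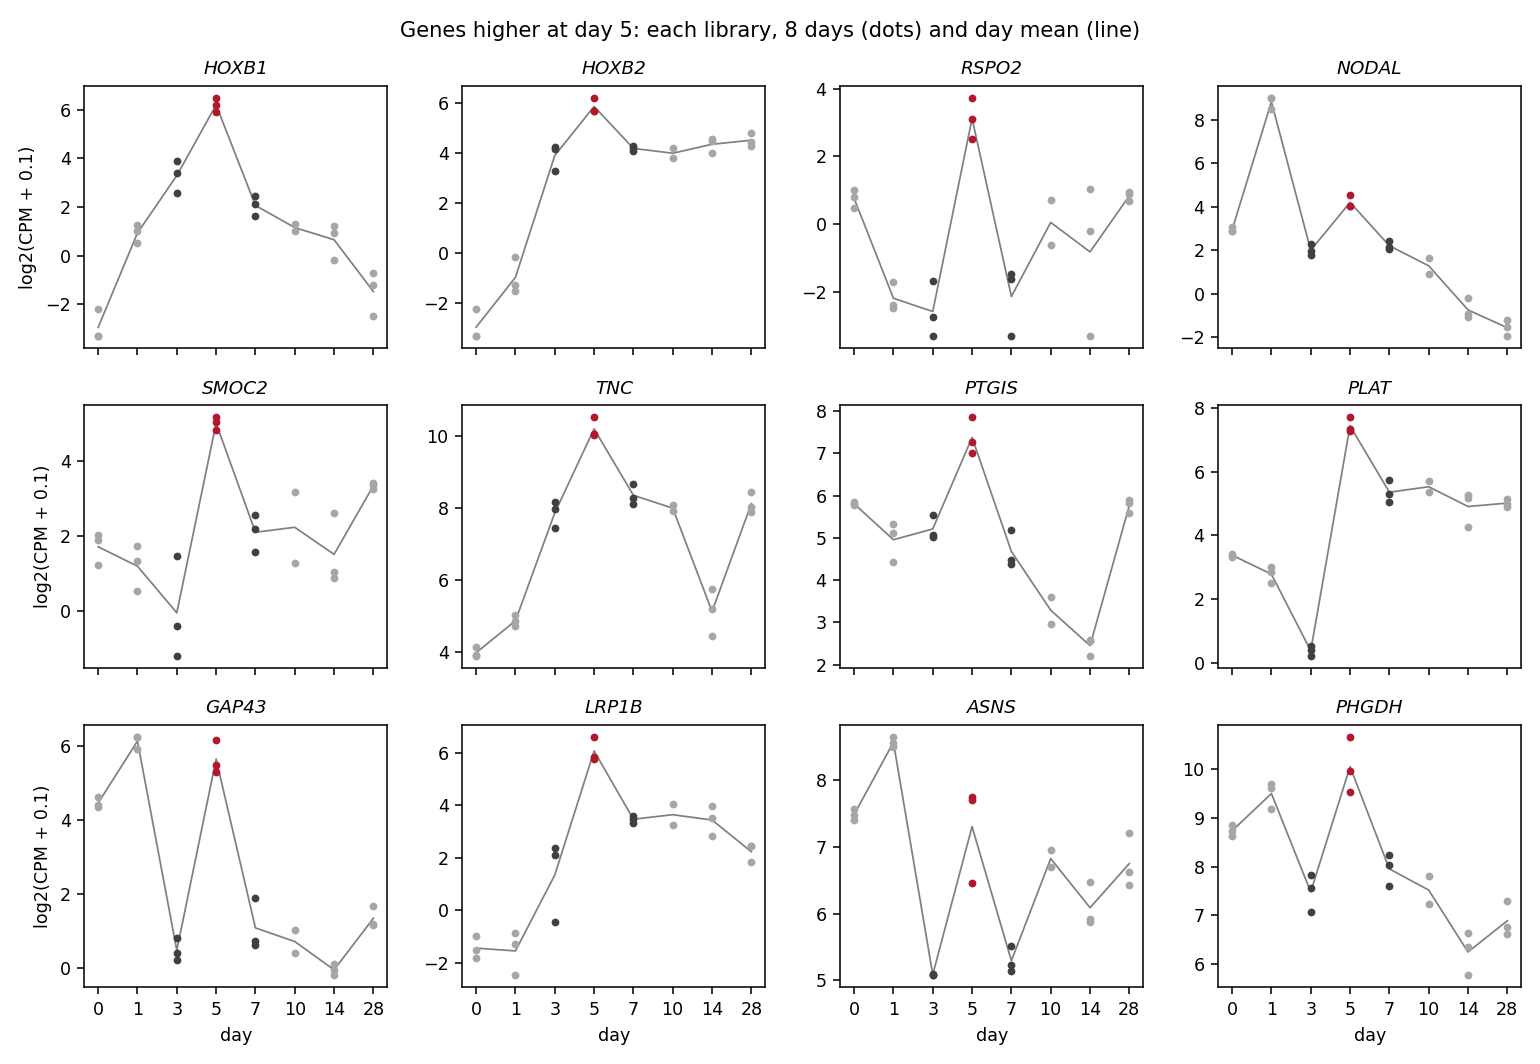
Levels of 12 genes higher at day 5 over the 8 days, as log2(CPM + 0.1), 1 dot a library (red day 5, black days 3 and 7, grey other days) with a line through the means of the log values. GAP43, NODAL and ASNS were higher at day 1 than at day 5, whereas RSPO2, SMOC2 and HOXB1 had their highest level at day 5.

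PHGDH and ASNS, enzymes of amino acid synthesis, were higher at day 5 than on both flanking days. PHGDH (chr1:119648411-119744218, plus strand), the first enzyme of serine synthesis, had 133, 227 and 189 CPM at day 3, 998, 734 and 1619 CPM at day 5 and 301, 193 and 262 CPM at day 7. The PHGDH difference was 2.61 ± 0.37 against day 3 (adjusted p = 0.000278) and 2.15 ± 0.37 against day 7 (adjusted p = 0.00299). ASNS (chr7:97851677-97872542, minus strand), asparagine synthetase, had 34.3, 33.8 and 33.6 CPM at day 3, 209, 216 and 87.9 CPM at day 5 and 45.6, 35.2 and 37.4 CPM at day 7. Its 6 flanking libraries lay within 33.6 to 45.6 CPM, and the lowest day 5 library, replicate 3, was still above them at 87.9. The log2 difference was 2.33 ± 0.37 against day 3 (adjusted p = 0.000606) and 2.12 ± 0.37 against day 7 (adjusted p = 0.00337). Both calls held without each library. The upstream windows of ASNS and PHGDH are those printed above, and TGATGNAA was found in that of ASNS and not in that of PHGDH. As the choice of the ASNS window preferred this motif, the contrast between the 2 genes is not a result.

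SLC7A5, the main importer of large neutral amino acids, had 64.9, 119 and 83.7 CPM at day 3, 214, 129 and 378 CPM at day 5 and 60.8, 47.1 and 57.3 CPM at day 7, and SLC7A3, an importer of cationic amino acids, had 26.6, 42.9 and 56.2 CPM at day 3, 103, 66.2 and 165 CPM at day 5 and 18, 16.6 and 19.5 CPM at day 7. Both met the rule, with the highest level in day 5 replicate 3, while ASNS was lowest in that library. The SLC7A5 call was lost without day 3 replicates 1 or 3 or day 5 replicates 1 or 3 or day 7 replicates 1, 2 or 3 (adjusted p from 0.0509 to 0.115) and under limma-voom (adjusted p = 0.0754), and day 5 overlapped a flanking library under upper-quartile factors. The SLC7A3 call was lost without day 3 replicates 1 or 2 or day 5 replicates 1 or 3 or day 7 replicate 3 (adjusted p from 0.0518 to 0.109) and under limma-voom (adjusted p = 0.0603). INHBE, an activin subunit gene induced by amino acid shortage, had 1.81, 2.52 and 2.55 CPM at day 3, 6.31, 5.91 and 7.44 CPM at day 5 and 2.57, 1.83 and 2.77 CPM at day 7. The INHBE call was lost without day 5 replicate 1 or day 7 replicates 1, 2 or 3 (adjusted p from 0.0719 to 0.186) and under limma-voom (adjusted p = 0.172).

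The list of integrated stress and p53 response genes, which holds ASNS and PHGDH, had most of its members uncalled. Of 17 tested, 5 were higher and none lower in the combined contrast, 2 were transient, and the median was 0.33. For all genes tested, 3.1% were higher and 1.19% lower, 0.544% were transient higher, and the median was 0.09. PSAT1, the second enzyme of serine synthesis, averaged 124 ± 28 (day 3), 199.9 ± 95.3 (day 5) and 48.3 ± 4.72 CPM (day 7) (mean ± SD, n = 3) and gave 0.69 against day 3 (adjusted p = 0.336) and 2.05 against day 7 (adjusted p = 0.0069), so it was above day 7 only. ATF4, the factor that drives amino acid response genes, averaged 424 ± 57.4 (day 3), 506 ± 50.5 (day 5) and 383 ± 12.4 CPM (day 7). DDIT3, a stress response factor, averaged 8.11 ± 0.269 (day 3), 11.8 ± 3.83 (day 5) and 16 ± 0.396 CPM (day 7). Neither passed any of the 3 tests. CDKN1A, a p53 target, averaged 45.1 ± 5.42 (day 3), 33.5 ± 14.7 (day 5) and 68 ± 3.96 CPM (day 7) and did not pass either. ASNS and PHGDH had also been high before, at 381 CPM at day 1 and 732 CPM at day 1.

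KRT18, CDH3 and S100A14, known from epithelia, met the rule on the higher side. KRT18, a keratin of simple epithelia, had 438, 749.9 and 657 CPM at day 3, 2827, 1747 and 5506 CPM at day 5 and 1308, 966 and 1364 CPM at day 7. All day 5 libraries were above all others, but they differed widely among themselves. The KRT18 call was lost without day 3 replicates 2 or 3 or day 5 replicates 1 or 3 or day 7 replicates 1, 2 or 3 (adjusted p from 0.0566 to 0.228) and under upper-quartile factors, limma-voom and the 30-count filter (adjusted p from 0.0583 to 0.0652). CDH3, P-cadherin, had 95.9, 114 and 91.9 CPM at day 3, 352, 266 and 466 CPM at day 5 and 172, 146 and 166 CPM at day 7. The CDH3 call was lost without day 3 replicates 2 or 3 or day 5 replicate 1 or day 7 replicates 1, 2 or 3 (adjusted p from 0.0728 to 0.246) and under upper-quartile factors, library totals, the 1-count filter, the 30-count filter and the replicate block (adjusted p from 0.0504 to 0.0725). S100A14, a calcium-binding protein of epithelia, had 1.86, 2.68 and 1.7 CPM at day 3, 51, 13.4 and 35.1 CPM at day 5 and 11.8, 2.23 and 4.66 CPM at day 7. The S100A14 call was lost without day 5 replicate 1 or day 7 replicates 2 or 3 (adjusted p from 0.109 to 0.128) and under limma-voom (adjusted p = 0.0868). KRT18 has many processed copies in the genome, which can take or lend reads.

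KCNJ3, PDE3A and CSRP2, genes of muscle or ion channels, met the rule on the higher side. The list of calcium handling and ion channel genes, which holds KCNJ3, went both ways. Of 16 tested, 4 were higher (3.1% of all genes) and 2 lower (1.19%) in the combined contrast, with a median of 0.22. Against day 7, 1 was higher (1.87% of all genes) and 7 were lower (3.49%). In each direction 1 was transient (0.544% and 0.336% of all genes). KCNJ3, the GIRK1 potassium channel of atrial and nodal cells, had 0.191, 0.569 and 0.532 CPM at day 3, 12, 56.9 and 13.8 CPM at day 5 and 6.21, 3.27 and 1.55 CPM at day 7. The KCNJ3 difference was 6.09 ± 0.77 against day 3 (adjusted p = 0.0001) and 2.98 ± 0.64 against day 7 (adjusted p = 0.013). The KCNJ3 call was lost without day 7 replicates 2 or 3 (adjusted p from 0.074 to 0.0787). PDE3A, a phosphodiesterase that breaks down cAMP in heart muscle, had 3.77, 2.03 and 1.06 CPM at day 3, 157, 744 and 117 CPM at day 5 and 99.8, 54.6 and 45.2 CPM at day 7. Day 5 replicate 2 was far above its replicates. The PDE3A call was lost without day 3 replicate 2 or day 5 replicates 1 or 2 or day 7 replicates 1, 2 or 3 (adjusted p from 0.0576 to 0.204) and under RLE factors, limma-voom and the 30-count filter (adjusted p from 0.0535 to 0.107), and day 5 overlapped a flanking library under library totals. CSRP2, a LIM protein of smooth muscle and progenitors, had 84.5, 80.4 and 67.3 CPM at day 3, 817, 713 and 679 CPM at day 5 and 316, 326 and 328 CPM at day 7. Its libraries agreed closely within each day. The CSRP2 difference was 3.25 ± 0.30 against day 3 (adjusted p = 7.72e-06) and 1.19 ± 0.28 against day 7 (adjusted p = 0.023). The CSRP2 call was lost without day 5 replicate 1 or day 7 replicates 1, 2 or 3 (adjusted p from 0.106 to 0.151). AKR1B15, an aldo-keto reductase, held its call without each library at 0.107 ± 0.121 (day 3), 12.4 ± 11.1 (day 5) and 0.73 ± 0.372 CPM (day 7) (mean ± SD, n = 3), but it is nearly identical to AKR1B10 and the split of reads between them is uncertain.

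The other higher genes whose call held without each library were TTYH2, STAR and LAMP5. TTYH2, a chloride channel-like membrane protein, averaged 6.45 ± 1.44 (day 3), 22.4 ± 5.25 (day 5) and 5.76 ± 1.57 CPM (day 7) (mean ± SD, n = 3). STAR, which carries cholesterol into mitochondria for steroid synthesis, averaged 1.58 ± 0.258 (day 3), 13.4 ± 3.25 (day 5) and 3.51 ± 0.888 CPM (day 7), and it overlaps ASH2L on the opposite strand. LAMP5, a lysosome-associated membrane protein of neurons, averaged 0.568 ± 0.208 (day 3), 6.82 ± 4.03 (day 5) and 0.799 ± 0.126 CPM (day 7). LAMP5 and AKR1B15 had too few counts to be tested with the 30-count filter. ITLN2, a lectin, averaged 5.02 ± 2.04 (day 3), 39.5 ± 18.5 (day 5) and 7.25 ± 3.11 CPM (day 7). The ITLN2 call was lost without day 5 replicate 1 or day 7 replicate 2 (adjusted p from 0.0528 to 0.056). PANX2, a pannexin channel protein, averaged 2.91 ± 1.34 (day 3), 31.7 ± 23.5 (day 5) and 6.54 ± 0.827 CPM (day 7). The PANX2 call was lost without day 5 replicate 1 or day 7 replicates 1, 2 or 3 (adjusted p from 0.051 to 0.0982). Over all 94 higher genes, the smaller of the log2 differences from the flanking days ran from 1.00 to 5.56, with a median of 1.94 (rule-chosen, so given as a description).

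DKK1 and DACT1, which act on Wnt signalling, were lower at day 5 than on both flanking days. DKK1 (chr10:52314281-52318042, plus strand), the secreted Wnt antagonist, had 194, 209.6 and 314 CPM at day 3, 15, 15.3 and 19.9 CPM at day 5 and 58, 71.1 and 61.7 CPM at day 7. The 3 day 5 libraries lay at 15 to 19.9 CPM and no flanking library was below 58. The log2 difference was -3.84 ± 0.35 against day 3 (adjusted p = 7.51e-06) and -1.93 ± 0.33 against day 7 (adjusted p = 0.00288). DKK1 had its highest mean at 837 CPM at day 1 and was at 14.2 CPM at day 10 and 11 CPM at day 28. DACT1, an intracellular modulator of Wnt signalling that binds Dishevelled, had 538, 559 and 739.8 CPM at day 3, 164, 136 and 122 CPM at day 5 and 427, 459 and 436 CPM at day 7. The DACT1 difference was -2.12 ± 0.30 against day 3 (adjusted p = 0.000242) and -1.65 ± 0.29 against day 7 (adjusted p = 0.00391). Both calls held without each library.

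RSPO3, a secreted Wnt enhancer of the same family as RSPO2, was called in the other direction. It had 6.78, 6.5 and 18.1 CPM at day 3, 2.78, 4.34 and 0.797 CPM at day 5 and 16.1, 10.1 and 11.8 CPM at day 7. The RSPO3 difference was -1.85 ± 0.51 against day 3 (adjusted p = 0.0289) and -2.13 ± 0.52 against day 7 (adjusted p = 0.0279). The RSPO3 call was lost without day 3 replicate 3 or day 5 replicates 1 or 3 or day 7 replicates 1, 2 or 3 (adjusted p from 0.0575 to 0.178) and under limma-voom (adjusted p = 0.428). Of 7 secreted Wnt antagonists tested, DKK1 alone was called lower in the combined contrast and none was higher. DKK3, another member, averaged 44.9 ± 4.62 (day 3), 51.5 ± 11.3 (day 5) and 138 ± 4.72 CPM (day 7) (mean ± SD, n = 3), lower than day 7 but not than day 3 (0.19 against day 3 (adjusted p = 0.767) and -1.43 against day 7 (adjusted p = 0.013)). Of 9 Wnt ligands tested, none was transient. Of 13 Wnt feedback targets tested, none was transient, 3 were lower in the combined contrast and 7 were lower than at day 3. The last 2 shares over all genes tested were 1.19% and 3.98%. With 0.544% of all genes transient higher and 0.336% lower, the absence of transient members in short lists says little. AXIN2, the usual readout of Wnt activity, averaged 72.9 ± 5.72 (day 3), 13.2 ± 2.0 (day 5) and 16.5 ± 0.89 CPM (day 7) and gave -2.46 against day 3 (adjusted p = 8.55e-05) and -0.31 against day 7 (adjusted p = 0.68).

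ETV5, IL17RD and DUSP10, which respond to or limit kinase signalling, met the rule on the lower side. ETV5, an ETS factor induced by FGF, had 72.3, 98 and 136 CPM at day 3, 51, 24.6 and 34 CPM at day 5 and 170.4, 156 and 173 CPM at day 7. Its log2 difference was -1.48 ± 0.36 against day 3 (adjusted p = 0.0128) and -2.19 ± 0.37 against day 7 (adjusted p = 0.00265). The ETV5 call was lost without day 3 replicate 3 (adjusted p = 0.0813). IL17RD, the FGF antagonist also called SEF, had 189, 130.3 and 174 CPM at day 3, 41.4, 34.1 and 16.2 CPM at day 5 and 96.8, 72 and 77.6 CPM at day 7. The IL17RD call was lost without day 3 replicates 2 or 3 or day 5 replicate 1 or day 7 replicates 1, 2 or 3 (adjusted p from 0.0576 to 0.171). DUSP10, a phosphatase of the stress kinases p38 and JNK, had 18.3, 15.9 and 22.4 CPM at day 3, 5.43, 8.76 and 5.58 CPM at day 5 and 14.6, 22.1 and 16.2 CPM at day 7. The DUSP10 call was lost without day 5 replicate 1 or day 7 replicates 1, 2 or 3 (adjusted p from 0.0603 to 0.18) and under limma-voom and the 1-count filter (adjusted p from 0.0629 to 0.266).

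Other members of the FGF list gave values on the same side that did not pass against day 7. SPRY4, a feedback inhibitor, averaged 149 ± 60.1 (day 3), 47.1 ± 10.1 (day 5) and 104 ± 1.82 CPM (day 7) (mean ± SD, n = 3), with log2 differences of -1.66 against day 3 (adjusted p = 0.00524) and -1.15 against day 7 (adjusted p = 0.0759). ETV4, a close relative of ETV5, averaged 23.2 ± 9.25 (day 3), 6.37 ± 2.57 (day 5) and 16.4 ± 1.82 CPM (day 7) and gave -1.91 against day 3 (adjusted p = 0.00507) and -1.41 against day 7 (adjusted p = 0.0583). DUSP6, a phosphatase of ERK itself, went the other way from day 3, at 107 ± 14.8 (day 3), 443 ± 83 (day 5) and 282 ± 9.68 CPM (day 7) (2.05 against day 3 (adjusted p = 0.000363) and 0.65 against day 7 (adjusted p = 0.274)). Of 20 FGF pathway genes tested, 4 were lower and 1 was higher in the combined contrast, with a median of -0.41. The shares over all genes were 1.19% lower and 3.1% higher, with a median of 0.09. ETV5 was the only transient gene of the list.

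TRDN, C10orf71 and NMRK2, genes of muscle, were lower at day 5 than on both flanking days. TRDN (chr6:123216339-123637189, minus strand), triadin, which anchors calcium release to the sarcoplasmic reticulum, had 25, 18.9 and 28.2 CPM at day 3, 1.77, 6.96 and 3.19 CPM at day 5 and 84.8, 98.7 and 80 CPM at day 7. The highest day 5 library, at 6.96 CPM, was below the lowest flanking one, at 18.9. The log2 difference was -2.54 ± 0.44 against day 3 (adjusted p = 0.00117) and -4.41 ± 0.47 against day 7 (adjusted p = 6.61e-05). TRDN was already at 54.7 CPM at day 0 and reached 535 CPM at day 14. Its antisense neighbour TRDN-AS1 had a mean of 0.669 CPM at day 3 and 2.53 at day 7, far below TRDN on the same days. C10orf71, which encodes a Z-disc protein of heart muscle, had 5.68, 8.29 and 8.3 CPM at day 3, 1.77, 0.898 and 0.531 CPM at day 5 and 9.21, 11.1 and 9.98 CPM at day 7. The C10orf71 difference was -2.71 ± 0.41 against day 3 (adjusted p = 0.000436) and -3.17 ± 0.42 against day 7 (adjusted p = 0.000373). The calls of TRDN and C10orf71 held without each library.

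NMRK2, a muscle kinase of NAD synthesis, had 4.39, 8.29 and 6.7 CPM at day 3, 1.14, 1.42 and 3.72 CPM at day 5 and 18.6, 25.6 and 24.2 CPM at day 7. The NMRK2 call was lost without day 3 replicate 2 or day 5 replicate 1 (adjusted p from 0.079 to 0.111) and under limma-voom (adjusted p = 0.169). Among 24 sarcomere genes tested, none was transient, against 0.544% transient higher and 0.336% lower over all genes. Of these 24, 18 were higher at day 5 than at day 3 (7.36% of all genes) and 20 were lower than at day 7 (3.49%). TNNT2, cardiac troponin T, averaged 1.36 ± 0.398 (day 3), 539 ± 127 (day 5) and 2041 ± 159 CPM (day 7) (mean ± SD, n = 3), with day 5 between the flanking days. Of 18 cardiac transcription factors tested, none was transient and 12 were higher than at day 3 (7.36% of all genes). NKX2-5, an early cardiac factor, averaged 0.401 ± 0.21 (day 3), 90.2 ± 82.4 (day 5) and 292 ± 25.4 CPM (day 7).

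RXRG, IRX2, BHLHE40 and SIX2, factors that act in the nucleus, met the rule on the lower side. RXRG (chr1:165400922-165445355, minus strand), a retinoid X receptor, had 20.1, 33.7 and 38.3 CPM at day 3, 1.39, 1.42 and 1.59 CPM at day 5 and 12.8, 9.16 and 11.4 CPM at day 7. The 3 day 5 libraries were within 1.39 to 1.59 CPM, and the log2 difference was -4.39 ± 0.39 against day 3 (adjusted p = 6.68e-06) and -2.93 ± 0.39 against day 7 (adjusted p = 0.000373). It was at 81.8 CPM at day 10 and 147 CPM at day 14. IRX2 (chr5:2745845-2751677, minus strand), an Iroquois homeobox factor, had 50.5, 45 and 35.7 CPM at day 3, 14, 10 and 12.2 CPM at day 5 and 47.1, 54.6 and 58.8 CPM at day 7. The IRX2 difference was -1.86 ± 0.31 against day 3 (adjusted p = 0.00096) and -2.15 ± 0.32 against day 7 (adjusted p = 0.000937). Both calls held without each library. BHLHE40, a bHLH repressor of the clock and stress responses, had 11.6, 12.9 and 25.9 CPM at day 3, 1.14, 0.674 and 1.33 CPM at day 5 and 3.21, 3.01 and 3.66 CPM at day 7. The BHLHE40 call was lost without day 3 replicate 2 or day 5 replicates 1 or 2 or day 7 replicates 1, 2 or 3 (adjusted p from 0.0592 to 0.159) and under limma-voom and the 23-library fit (adjusted p from 0.0673 to 0.335). SIX2, a homeobox factor of the second heart field and kidney, had 0.62, 1.14 and 0.213 CPM at day 3, 0.126, 0.0748 and 0 CPM at day 5 and 3.0, 5.89 and 4.66 CPM at day 7. It had 2 counts in all at day 5, and the ratio of day 7 to day 5 was 59.3 with a 95% exact counting interval of 16 to 496. The SIX2 call was lost without day 3 replicates 1 or 2 or day 5 replicates 1, 2 or 3 or day 7 replicates 2 or 3 (adjusted p from 0.0556 to 0.147) and under limma-voom (adjusted p = 0.568), and SIX2 was not tested under the 30-count filter. It was also lost without day 3 replicate 1 and day 5 replicate 2 together (adjusted p = 0.111).

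GRAP2, CD44 and LAMA2, of signalling or adhesion, also met the rule on the lower side. GRAP2, an adaptor downstream of receptor kinases, had 52.9, 65.5 and 71.7 CPM at day 3, 6.82, 4.12 and 7.17 CPM at day 5 and 20.1, 25 and 24.5 CPM at day 7. The GRAP2 difference was -3.41 ± 0.35 against day 3 (adjusted p = 1.7e-05) and -1.97 ± 0.34 against day 7 (adjusted p = 0.00306). CD44 (chr11:35138882-35232402, plus strand), the hyaluronan receptor, had 21.6, 25.1 and 20.3 CPM at day 3, 2.52, 1.87 and 3.45 CPM at day 5 and 9.85, 9.55 and 8.42 CPM at day 7. Day 3 was highest, day 7 intermediate and day 5 lowest, with no overlap. The CD44 difference was -3.15 ± 0.35 against day 3 (adjusted p = 3.25e-05) and -1.88 ± 0.35 against day 7 (adjusted p = 0.00463). LAMA2, the laminin chain of muscle basement membrane, had 12.7, 5.77 and 7.66 CPM at day 3, 1.77, 2.99 and 1.33 CPM at day 5 and 27.8, 31 and 20.4 CPM at day 7. The LAMA2 difference was -2.02 ± 0.42 against day 3 (adjusted p = 0.00434) and -3.61 ± 0.43 against day 7 (adjusted p = 0.000185). It was at 512 CPM at day 14 and 1086 CPM at day 28. The calls of GRAP2, CD44 and LAMA2 held without each library, and that of LAMA2 was lost under limma-voom (adjusted p = 0.184).

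RASGRP3, an activator of RAS, had 158, 65.3 and 44.8 CPM at day 3, 5.3, 9.13 and 1.86 CPM at day 5 and 33.4, 35.6 and 28.8 CPM at day 7. The RASGRP3 call was lost without day 5 replicate 1 (adjusted p = 0.0947). ITGA6, the laminin-binding integrin alpha 6, had 141, 64.4 and 78.9 CPM at day 3, 20.9, 32.2 and 8.23 CPM at day 5 and 67.2, 65.5 and 71.2 CPM at day 7. The ITGA6 call was lost without day 3 replicate 3 or day 5 replicate 1 or day 7 replicates 1, 2 or 3 (adjusted p from 0.0527 to 0.161). COL13A1, a transmembrane collagen, had 121, 148 and 222 CPM at day 3, 27.3, 21.3 and 19.1 CPM at day 5 and 56.7, 62.6 and 58.3 CPM at day 7. The COL13A1 call was lost without day 5 replicate 1 or day 7 replicates 1, 2 or 3 (adjusted p from 0.0686 to 0.128). GJA4, the gap junction protein connexin 37 of arterial endothelium, had 10.7, 16.3 and 18.2 CPM at day 3, 4.92, 1.72 and 7.7 CPM at day 5 and 23.1, 24.9 and 39 CPM at day 7. The GJA4 call was lost without day 3 replicates 2 or 3 or day 5 replicate 1 (adjusted p from 0.071 to 0.0939) and under limma-voom (adjusted p = 0.109). GJA4 was in no list of endothelial markers. Of 20 such markers tested, none was transient. This says little, as 0.544% of all genes tested were transient higher and 0.336% lower. Among these markers, 10 were higher than at day 3 (7.36% of all genes) and 10 were lower than at day 7 (3.49%). Their summed level was 563, 576 and 230 CPM in the 3 day 5 libraries, lowest in replicate 3, against 367 to 446 at day 3 and 872 to 922 at day 7. GJA4 itself was lowest in day 5 replicate 2.

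Further lower genes have roles in lipid transport, hormones or the cell's scaffold. SLC27A6, a fatty acid transporter of the heart, had 34.8, 21.9 and 26.9 CPM at day 3, 3.53, 5.69 and 2.12 CPM at day 5 and 18.2, 13.9 and 17.9 CPM at day 7. The SLC27A6 difference was -2.81 ± 0.38 against day 3 (adjusted p = 0.000192) and -2.06 ± 0.38 against day 7 (adjusted p = 0.00471). It was at 162 CPM at day 14 and 212 CPM at day 28. TRH, thyrotropin-releasing hormone, had 4.15, 5.12 and 5.32 CPM at day 3, 0.884, 0.749 and 2.12 CPM at day 5 and 9.85, 14.9 and 11.9 CPM at day 7. The TRH difference was -2.13 ± 0.43 against day 3 (adjusted p = 0.00365) and -3.47 ± 0.43 against day 7 (adjusted p = 0.000239). ADAMTSL2, a secreted protein that binds fibrillin and LTBP1, had 3.39, 5.04 and 3.94 CPM at day 3, 0.379, 0.0748 and 0.531 CPM at day 5 and 6.0, 6.54 and 5.65 CPM at day 7. Its 3 day 5 libraries were near 0, and no flanking library was below 3.39 CPM. The ADAMTSL2 difference was -3.94 ± 0.53 against day 3 (adjusted p = 0.000181) and -4.5 ± 0.53 against day 7 (adjusted p = 0.000181). KLHL14, a Kelch family protein, had 18.5, 13.3 and 12.6 CPM at day 3, 4.54, 3.97 and 3.45 CPM at day 5 and 45.4, 38 and 44 CPM at day 7. The KLHL14 difference was -1.88 ± 0.32 against day 3 (adjusted p = 0.00109) and -3.39 ± 0.33 against day 7 (adjusted p = 4.35e-05). AHNAK2, a large scaffold protein, had 17.9, 28.2 and 24.8 CPM at day 3, 8.33, 4.19 and 6.38 CPM at day 5 and 24.6, 29.3 and 22.9 CPM at day 7. The AHNAK2 difference was -1.91 ± 0.35 against day 3 (adjusted p = 0.00188) and -2.03 ± 0.35 against day 7 (adjusted p = 0.00334). All 5 calls held without each library, and that of TRH was lost under limma-voom (adjusted p = 0.12).

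The remaining lower genes with a call that held without each library were ACOXL, FHAD1, TMC8, PRSS2, TNR, SORCS1 and PPFIA2, all at low levels. Their means at day 5 ran from 0.138 CPM (TNR, tenascin-R) to 2.05 CPM (PPFIA2, a liprin scaffold protein). On the flanking days PPFIA2 averaged 8.43 CPM (day 3) and 10.8 CPM (day 7). All 7 calls were lost under limma-voom (adjusted p from 0.115 to 0.279), and TMC8 and TNR were not tested with the 30-count filter. PRSS2, a trypsinogen, is one of a set of near-identical copies, so its counts are uncertain. AFAP1L1, an actin-associated protein, averaged 25.2 ± 18.5 (day 3), 6.38 ± 1.82 (day 5) and 45.9 ± 6.25 CPM (day 7) (mean ± SD, n = 3). The AFAP1L1 call was lost without day 3 replicate 3 (adjusted p = 0.0741) and under limma-voom (adjusted p = 0.152). COL16A1, a fibril-associated collagen, averaged 16.1 ± 3.62 (day 3), 5.31 ± 1.68 (day 5) and 14.8 ± 2.46 CPM (day 7). The COL16A1 call was lost without day 5 replicate 1 or day 7 replicates 1, 2 or 3 (adjusted p from 0.0694 to 0.114) and under limma-voom (adjusted p = 0.161). Over all 58 lower genes, the smaller of the log2 differences from the flanking days ran in size from 1.19 to 4.37, with a median of 1.94.

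Metallothioneins, small proteins that bind zinc and copper, were listed after their values were seen. Of 10 genes, 4 passed the count filter, 2 were transient lower (0.336% of all genes tested) and 3 were lower in the combined contrast (1.19%). MT1E had 0.62, 2.19 and 4.25 CPM at day 3, 0.379, 0.225 and 0 CPM at day 5 and 5.78, 4.45 and 4.77 CPM at day 7, and MT1G had 1.15, 1.46 and 3.4 CPM at day 3, 0.126, 0.0748 and 0 CPM at day 5 and 1.93, 1.18 and 1.11 CPM at day 7. MT1G had 2 counts in all at day 5, and the ratio of day 3 to day 5 was 21.7 with a 95% exact counting interval of 5.81 to 183. The MT1E call was lost without day 3 replicate 3 (adjusted p = 0.0522) and under limma-voom (adjusted p = 0.403). The MT1G call was lost without day 5 replicate 1 (adjusted p = 0.0583) and under limma-voom (adjusted p = 0.262), and MT1G was not tested under the 30-count filter. MT2A averaged 1.21 ± 0.859 (day 3), 0.209 ± 0.191 (day 5) and 6.75 ± 1.5 CPM (day 7) (mean ± SD, n = 3) and did not pass against day 3 (adjusted p = 0.0944). MT1X, the remaining gene tested, did not meet the rule. It had 26, 19 and 44 counts at day 3, 1, 7 and 6 at day 5 and 18, 20 and 30 at day 7. Once scaled, its day 5 libraries overlapped flanking ones. SLC30A1, a zinc exporter that is regulated by the same metal-sensing factor, had 33.5, 24.1 and 31.5 CPM at day 3, 8.21, 8.91 and 6.38 CPM at day 5 and 15.4, 19.5 and 19.3 CPM at day 7. The SLC30A1 call was lost without day 3 replicates 2 or 3 or day 5 replicate 1 or day 7 replicates 1, 2 or 3 (adjusted p from 0.0632 to 0.193) and under limma-voom, the 1-count filter and the replicate block (adjusted p from 0.0706 to 0.173). The metallothionein genes lie side by side on chromosome 16 and are near-identical, so the split of reads among them is uncertain.

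**Figure D3:**
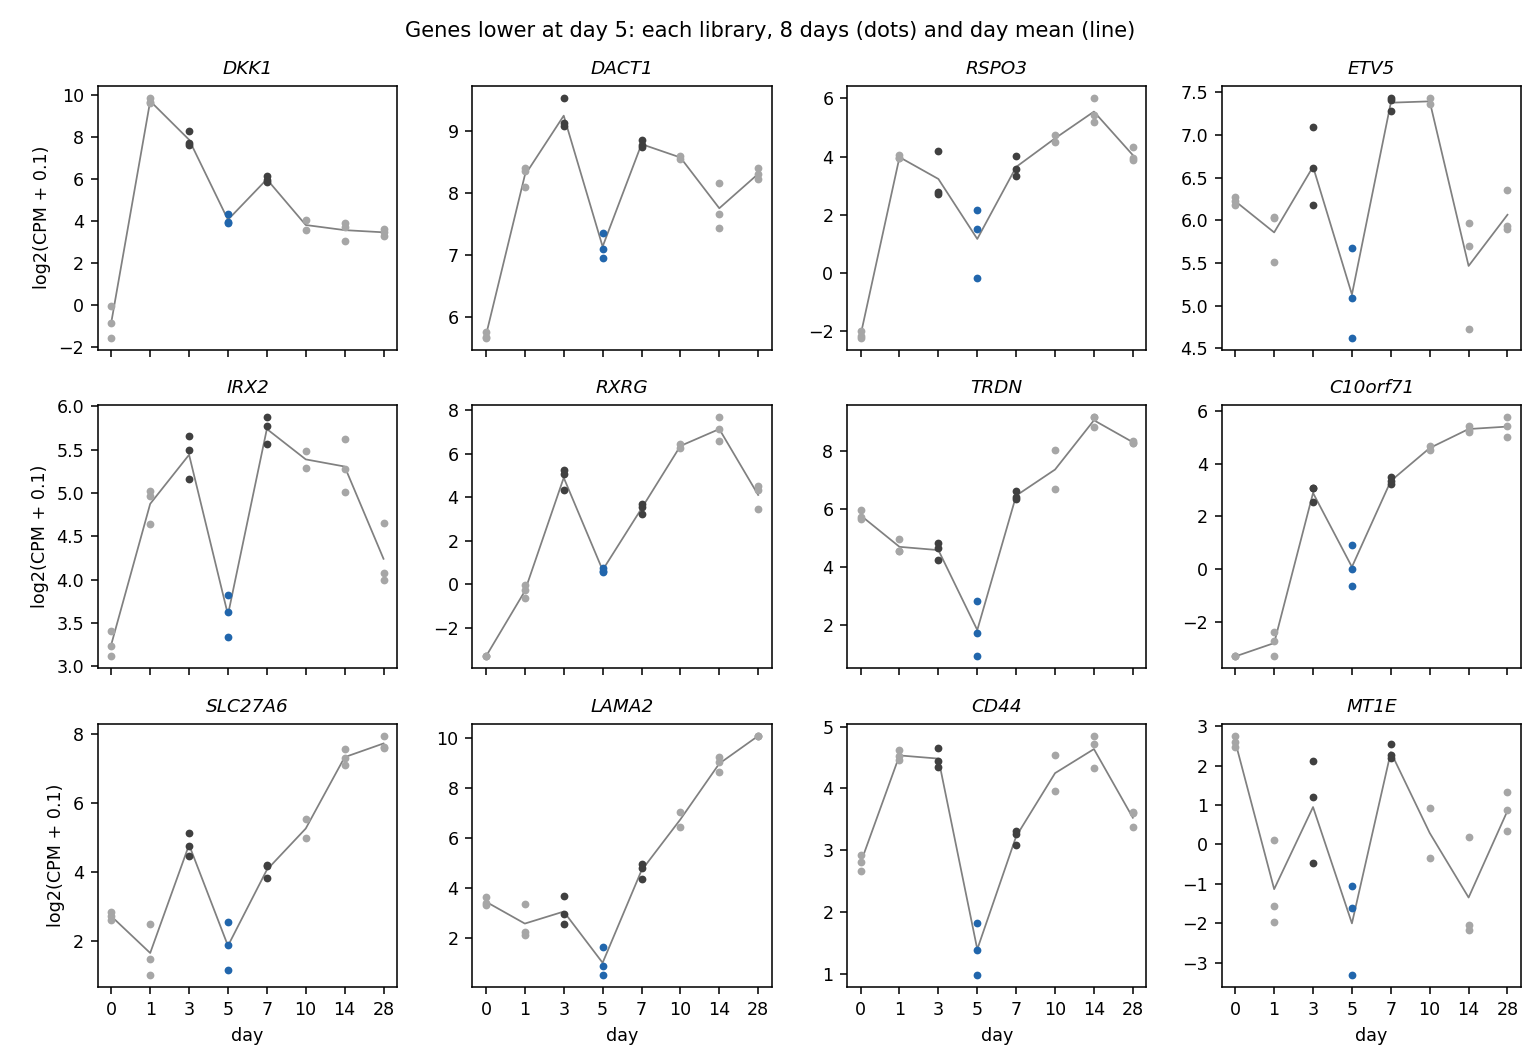
Levels of 12 genes lower at day 5 over the 8 days, as log2(CPM + 0.1), 1 dot a library (blue day 5, black days 3 and 7, grey other days) with a line through the means of the log values. DACT1, IRX2, C10orf71 and CD44 show a dip between day 3 and day 7, and TRDN, SLC27A6 and LAMA2 had higher levels at days 14 and 28 than at day 7.

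Over the whole course, the mean level at day 5 was the highest of the 8 days for 76 of the 94 higher genes (80.9%), against 12.6% of all genes tested. It was the lowest of the 8 days for 32 of the 58 lower genes (55.2%), against 5.03% of all. The choice of genes by their level at day 5 raises both shares. Of the 18 higher genes with another peak, 4 peaked in the stem cells of day 0, 5 in the mesendoderm of day 1 and 7 at day 28, with 1 each at days 10 and 14. COL21A1 was one of those, with 226 CPM at day 28, and TBX18 reached 26.6 CPM at day 28. Of the lower genes not lowest at day 5, 12 were lowest at day 0 and 8 at day 1. RXRG and C10orf71, for example, had no count at day 0.

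**Figure D4:**
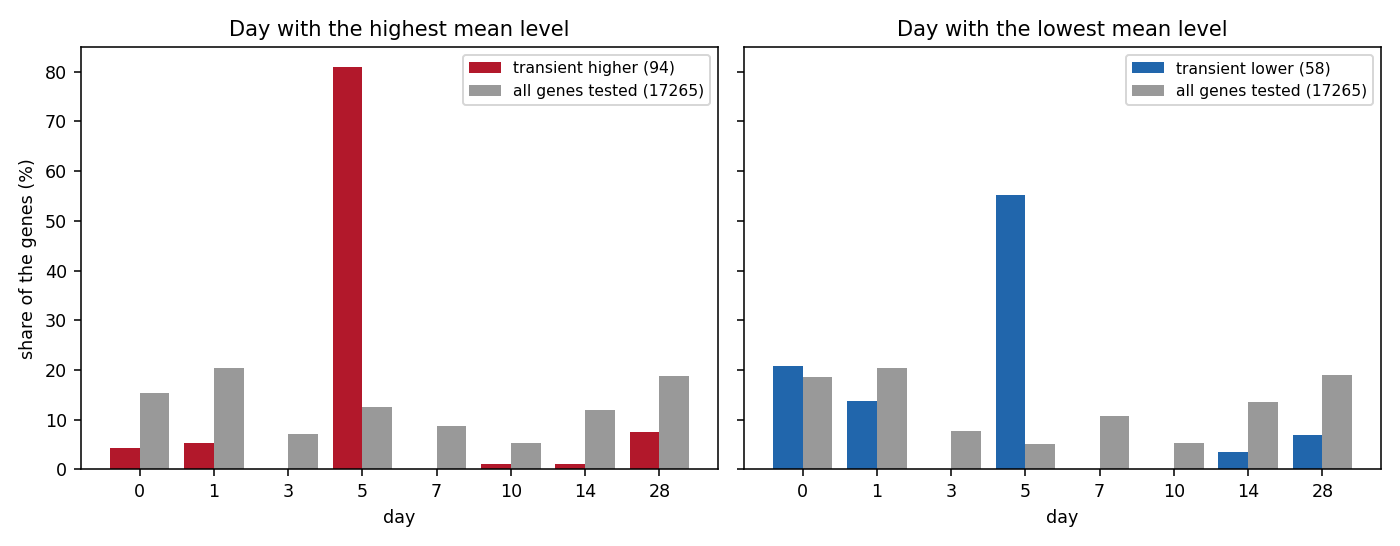
Share of genes (bars, % of each set) by the day of their highest mean level (left, 94 transient higher genes, red) or lowest mean level (right, 58 transient lower genes, blue), with all 17265 genes tested in grey. Day 5 holds 80.9% and 55.2% of the transient sets against 12.6% and 5.03% of all genes.

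Some features that the rule did not use directly were set beside those of all genes tested. Protein-coding genes made up 88 of the 94 (93.6%) and 55 of the 58 (94.8%), against 81.2% of all genes tested. The median genomic span was 49.7 kb for the higher and 66.0 kb for the lower genes, against 28.0 kb for all. The median exonic length was 4443 bases for the higher and 5198 for the lower genes, against 4823 for all. Span was not compared among protein-coding genes alone, so the part of gene type in this difference was not tested. Among the higher genes, the day 5 library with the highest level was replicate 1 for 16, replicate 2 for 38 and replicate 3 for 40, shares close to those over all genes (18.5%, 40.0% and 41.5%). The 38 genes highest in replicate 2 had a median span of 110 kb and the 40 highest in replicate 3 one of 20.5 kb. This split was not made for all genes tested, so it may not be particular to the transient genes. Long genes such as PDE3A, DDR2 and LRP1B were in the first set and short ones such as KRT18 and PCOLCE in the second. The numbers of transient genes without each of these 2 libraries are given above. The part of gene span in the calls was not tested.

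At the edge of the rule, VIM, the intermediate filament of mesenchymal cells, was the last gene inside, with a larger adjusted p of 0.0497 against day 7 and 556 ± 144 (day 3), 1807 ± 216 (day 5) and 866 ± 66.9 CPM (day 7) (mean ± SD, n = 3). The VIM call was lost without day 3 replicates 1, 2 or 3 or day 5 replicate 1 or day 7 replicates 1, 2 or 3 (adjusted p from 0.0567 to 0.261) and under RLE factors, upper-quartile factors, library totals, limma-voom, the 1-count filter, the 30-count filter and the replicate block (adjusted p from 0.0508 to 0.0937). UGT3A2, a glycosyltransferase, was the first outside, with 0.0503 and 11.9 ± 1.3 (day 3), 46.9 ± 15.1 (day 5) and 21 ± 3.08 CPM (day 7). LPIN1, the phosphatidate phosphatase named in the series title, was not transient. It had 86.3, 51.8 and 58.2 CPM at day 3, 26.5, 33.8 and 12.2 CPM at day 5 and 42.4, 39 and 33.5 CPM at day 7. The LPIN1 difference was -1.42 ± 0.38 against day 3 (adjusted p = 0.0232) and -0.65 ± 0.38 against day 7 (adjusted p = 0.443). The gene ENSG00000235949, which has no entry in GENCODE v44, held its call without each library and was not tested with the 30-count filter. It had no count at day 3, and its day 5 libraries held 2.02, 5.69 and 5.05 CPM. With a floor of 3 counts over the day 3 libraries, this was at least 63-fold higher.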

How the data were processed

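The submitters' processing notes name Trim Galore 0.65 (to a length of 50 bases), STAR 2.7.0, HTSeq-count and GENCODE v38 on GRCh38. The strand setting is not given in the sources used here. The deposited table holds unscaled whole-number counts. No column lacked a sample. Of 57521 genes, 44 pseudoautosomal Y copies with 0 counts were left out. Names and positions are from GENCODE v44, which holds 56387 of the 57477 identifiers used.

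The 9 libraries of days 3, 5 and 7 were fitted in edgeR 4.0.16 (R 4.3.3, limma 3.58.1) with filterByExpr (minimum 10 counts), TMM scaling, day as factor and the robust quasi-likelihood test, leaving 17265 genes. A standard error is the size of the log2 difference over the square root of the F statistic. P-values were adjusted by Benjamini-Hochberg over all genes tested, and no fold threshold was set. The other days were placed on the same TMM scale to give levels. Replicate numbers were not used to pair the libraries in the main fit. Correlations of deviations between same-numbered libraries ran from -0.603 to 0.367, which cannot tell whether they share a culture.

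Genes named are, per direction, the 15 with the largest smaller-of-both flanking difference, a characterised symbol and at least 10 CPM, transient list members, leading list members, the genes at the threshold and LPIN1. Others (such as RSPO2, PLAT, PTGIS, ACKR3, GFRA2, CD44, C10orf71, TRH, SLC7A5, KRT18 and the metallothioneins) were named after their values were seen, mostly because their calls held without each library. Members and lists were chosen with earlier results of these data known. The 41 lists are described by counts and medians only. Alternatives were other scalings, DESeq2 1.42.0, limma-voom, other filters, a replicate block, all 23 libraries, and each library left out. The test was checked on simulated data. Intervals and floors cover counting error only. 1 gene that met the rule is not reported here.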

Additional observations from a re-analysis of the deposited data

How the results depend on the processing

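The numbers of transient genes (94 higher, 58 lower) and of genes called in the combined contrast (535 and 206) kept within 1.5 times of these values under RLE factors, upper-quartile factors, library totals alone, both other filters, the exclusion of mitochondrially encoded genes and the replicate block, and no alternative reversed a named gene. Library totals gave 75 transient higher and 71 lower genes, which moved the share of higher genes from 61.8% to 51.4% and the median combined log2 difference of all genes from 0.09 to -0.02. With a replicate block the fit called 97 transient higher and 57 lower genes and 541 and 240 in the combined contrast, of which 85 and 53 transient genes were shared with the fit without it. Whether same-numbered libraries share a culture is not in the labels, and deviations among 3 libraries a day cannot settle it. Fitting all 23 libraries gave 193 and 109 transient genes and 1194 and 524 in the combined contrast, and kept 93 of the 94 and 57 of the 58. The limma-voom fit with a spread for each day gave 52 and 18 transient genes and 199 and 35 combined. DESeq2 gave 342 lower genes in the combined contrast. Leaving out single libraries gave 25 to 361 transient higher, 29 to 276 transient lower, 304 to 1534 combined higher and 90 to 1130 combined lower genes. An alternative chosen after seeing the data, without day 3 replicate 1 and day 5 replicate 2 together, gave 403 and 449 transient genes and 1629 and 1386 combined, with 85 of the 94 and 51 of the 58 kept. The causes were not tested. Depth limits what can be said of genes near 1 CPM, which is 3.77 counts in the shallowest library. In all, 17 of the 94 higher and 12 of the 58 lower genes kept their call under every leave-one-out fit and every other setting tried.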
